A study of Homo sapiens with 12 samples.

Results

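The metallothioneins and zinc transporters described here are 10 genes of the deposited table, picked by symbol: the metallothioneins MT1E, MT1F, MT1G, MT1X and MT2A, the transcription factor MTF1, the zinc exporters SLC30A1 and SLC30A5, and the zinc importers SLC39A6 and SLC39A10. They are 10 of 50868 genes in the table. The low-count filter kept 9 of them among 16554 tested genes, and MT1G had no count in any library. The 10 symbols were proposed with results of these libraries in view, so their fold changes and adjusted p-values describe these libraries and are no independent evidence.

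RNA was sequenced from RPMI2650, an established human line from a tumour of the nasal septum, labelled as wild type nasal epithelium and grown at an air-liquid interface, where the upper surface of the cell layer faces air. The cells were exposed for 7 days to PFBA (perfluorobutanoic acid) or PFHxA (perfluorohexanoic acid), each at 1 µM, and the series set out to compare perfluoroalkyl acids of different chain length. Both are perfluorinated carboxylic acids, and PFHxA has the longer carbon chain. The control group carries no dose or day in its labels, and the labels name no vehicle. Each group had 4 libraries, called a to d after the table's columns, and the labels do not say whether these were separate cultures, so that p-values measure only the spread between libraries, which may be technical.

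Metallothioneins are small cysteine-rich proteins that bind zinc, copper and cadmium, and their genes lie together on chromosome 16. When free zinc rises, the zinc finger factor MTF1 moves to the nucleus, binds metal response elements and raises transcription of metallothionein genes and of SLC30A1, while zinc represses SLC39A10. Most proteins of the SLC30 (ZnT) family carry zinc out of the cytosol, across the plasma membrane or into organelles, and proteins of the SLC39 (ZIP) family carry it in.

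The sequences upstream of 4 members are printed because they show whether and where the core of the metal response element occurs in the genes named above as zinc-responsive. Of the members, 7 had an entry in the RefSeq promoter table (GRCh38.p14), and MT1E, MT1F and MT1G had none. Each line gives the 250 bases before the RefSeq start, 5′ to 3′ on the gene's strand. Capitals mark matches to TGCACNC or TGCGCNC on either strand, and no 2 matches overlapped in the members' windows. RefSeq starts need not be the ends of the loci given further on, which are those of the deposited table (GRCh38). The RefSeq starts of MT2A, MT1X, MTF1, SLC39A6, SLC39A10 and SLC30A5 lie inside their loci, and that of SLC30A1 lies outside. The RefSeq start of SLC39A10 lies far inside its locus, which begins at 195575977, so sequence before the start of that locus was not searched.

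MT2A, chr16:56608334-56608583, plus strand: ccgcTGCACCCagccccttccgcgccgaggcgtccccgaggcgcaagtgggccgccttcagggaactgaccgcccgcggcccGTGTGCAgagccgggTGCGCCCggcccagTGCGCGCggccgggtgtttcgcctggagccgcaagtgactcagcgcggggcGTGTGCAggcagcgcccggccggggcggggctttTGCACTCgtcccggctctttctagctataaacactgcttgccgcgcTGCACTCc
MT1X, chr16:56682220-56682469, plus strand: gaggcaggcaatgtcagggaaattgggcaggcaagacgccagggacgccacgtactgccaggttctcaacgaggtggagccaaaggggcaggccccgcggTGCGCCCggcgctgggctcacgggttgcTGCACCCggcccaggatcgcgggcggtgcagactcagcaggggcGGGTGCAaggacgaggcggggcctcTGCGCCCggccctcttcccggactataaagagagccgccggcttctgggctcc
SLC30A1, chr1:211579162-211579411, minus strand: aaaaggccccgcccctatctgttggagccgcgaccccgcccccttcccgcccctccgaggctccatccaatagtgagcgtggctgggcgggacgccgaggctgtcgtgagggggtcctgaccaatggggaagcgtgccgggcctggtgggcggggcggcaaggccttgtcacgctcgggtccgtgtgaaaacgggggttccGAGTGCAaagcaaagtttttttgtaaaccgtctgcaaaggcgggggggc
SLC39A10, chr2:195656708-195656957, plus strand: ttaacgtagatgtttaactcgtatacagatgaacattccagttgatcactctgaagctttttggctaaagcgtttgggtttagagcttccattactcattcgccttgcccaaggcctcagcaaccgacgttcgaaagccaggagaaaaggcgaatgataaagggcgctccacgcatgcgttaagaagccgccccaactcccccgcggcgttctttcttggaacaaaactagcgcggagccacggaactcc

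The MT2A window held 7 matches, 5 to TGCACNC and 2 to TGCGCNC. The MT1X window held 4. SLC30A1 had 1, whose nearest end to the upstream side lay 49 bases before the start, and SLC39A6 had 1. The windows of MTF1, SLC39A10 and SLC30A5 held none of these letters. Over all 27305 RefSeq windows of the same length, 24.7% held at least 1 match, 0.366% at least 4 and 0.0586% at least 6. A match is a description of the sequence, and the expression data do not show whether MTF1 was bound there. The plot of match positions shows where they lie along the 7 windows.

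**Figure D1:**
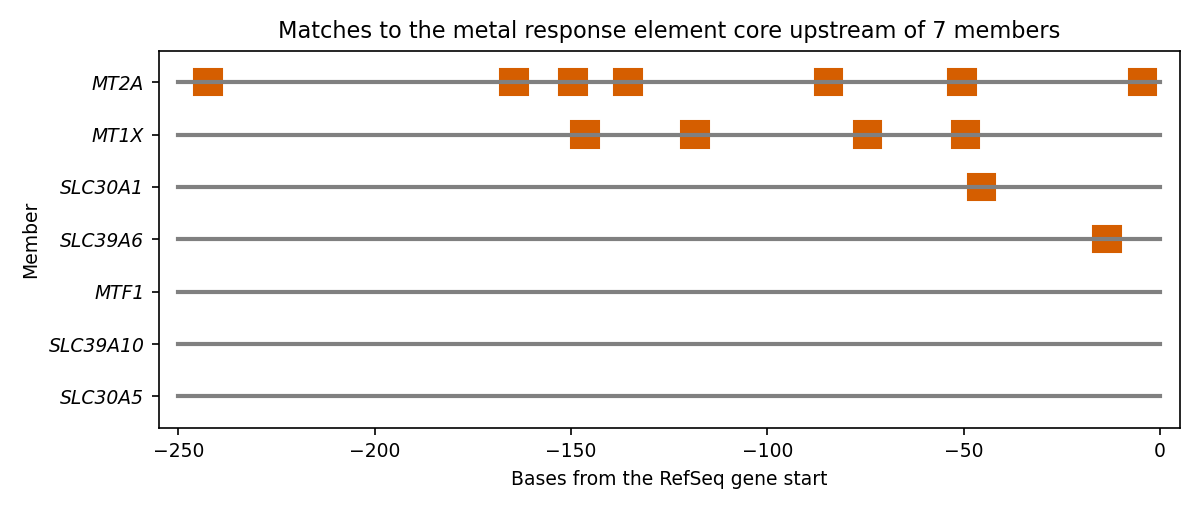
Position of each match to TGCACNC or TGCGCNC, on either strand, in the 250 bases before the RefSeq start of 7 members. The horizontal axis is the distance from the start in bases, each box is 1 match drawn to its length, and the 7 boxes of MT2A and the 4 of MT1X stand against 1 each in SLC30A1 and SLC39A6 and none in the rest.

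Library totals ran from 16941599 to 21879105 counts. Of the epithelial markers, KRT5 stood at 691 to 838 CPM per kilobase and KRT19 at 236 to 271, while TP63 stayed between 0.269 and 0.527. CPM is counts per 1e6 of a library's scaled total, and CPM per kilobase divides it by the length of the gene's longest GENCODE transcript. Of the 8 markers, 7 had a mean above 1 CPM, and the summed level of all 8 ran from 2750 to 2789 CPM in control, 2546 to 2664 in PFBA and 2792 to 2999.9 in PFHxA libraries. Of the immune markers, CD68 stood at 0.929 to 2.70 CPM, and a library held at most 2 counts of PTPRC and 1 of CD3E. Of 5 markers of differentiated airway cells 3 had a mean above 1 CPM, with the ciliated cell factor FOXJ1 at 6.88 to 9.12 CPM and the secretory cell marker SCGB1A1 at 0 in all 12 libraries. Their sum ran from 10.7 to 12.8 CPM in control, 8.77 to 12.7 with PFBA and 12.5 to 12.8 with PFHxA. Of the endothelial markers CDH5 stood at 6.08 to 10.3 CPM, while PECAM1 reached at most 0.817 and VWF at most 0.838. Of the fibroblast markers PDGFRB stood at 22.9 to 29.6 CPM and COL1A1 at 1.82 to 2.81, beside 5.98 to 12.6 for the epithelial CDH1. A library held at most 1 count of COL1A2 and 2 of DCN. The part of other cell types in the results was not tested. Library measures also moved with the groups. The slope of a library's log2 deviations from each gene's mean over transcript GC content, per 10 percentage points, was 0.0843 ± 0.0143 (SD, n = 4) with PFHxA against -0.0405 ± 0.0238 in control and -0.0438 ± 0.0326 with PFBA. By exact permutation, two-sided, each difference from PFHxA had p = 0.0286, the smallest possible, and 0.0857 after adjustment over 12 tests of library measures. The slope over transcript length, per doubling, was 0.0194 ± 0.00514 with PFHxA, 0.00787 ± 0.0223 with PFBA and -0.0273 ± 0.0244 in control, with adjusted exact permutation p of 0.495 and 0.0857 for PFHxA against these. The share of counts from mitochondrial genes was 12.6 ± 0.575% with PFHxA, 10.9 ± 1.25% in control and 11.4 ± 0.239% with PFBA, with adjusted exact permutation p of 0.137 and 0.0857 for PFHxA against these. In bulk RNA, a change in the number of cells of a type and a change in RNA per cell cannot be told apart.

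Per length, the zinc transporters and MT2A were the highest of the members. Mean CPM per kilobase over the 12 libraries was 48.5 for SLC39A6 (range 41.8 to 54.4) and 25.7 for SLC30A1 (23.7 to 27.3), whose ranges did not overlap. MT2A followed at 16.6 (12.3 to 21.4), then SLC30A5 at 15.2 (14.2 to 16.8) and SLC39A10 at 13.01 (10.2 to 15.2), and in that stretch each overlapped the next. MT1X at 4.96 (3.58 to 5.80) and MTF1 at 4.96 (4.51 to 5.43) could not be ordered, and changed places in 7 of 12 rankings that left out 1 library. MT1E stood at 1.63 (1.12 to 2.30) and MT1F at 0.542 (0.142 to 1.45), which overlapped. Levels of short genes depend on the transcript length assumed, and the longest transcript has 903 bases for MT2A against 7972 for MTF1.

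MT2A, the most abundant metallothionein here, lies at chr16:56608199-56609497 on the plus strand (ENSG00000125148). Its level was 13.4, 13.5, 12.9 and 11.1 CPM in control libraries a to d, 19.3, 14.3, 16.2 and 19.2 with PFBA, and 17.4, 14.9, 14.2 and 13.8 with PFHxA. Every library of either acid lay above every control library, and the acids overlapped each other. The group means were 12.7 ± 1.11 CPM (SD, n = 4) in control, 17.3 ± 2.45 with PFBA and 15.1 ± 1.58 with PFHxA. PFBA stood 0.44 above control on the log2 scale (SE 0.110, 1.36-fold), with an adjusted p of 0.304 in edgeR's quasi-likelihood test over all tested genes, and PFHxA stood 0.24 above control (SE 0.111, adjusted p = 0.165). Neither passed the threshold of 0.05. These 2 comparisons share the control libraries.

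MT1F, another member of the cluster at chr16:56657694-56660698 (plus strand, ENSG00000198417), was rare, and its highest library stood farthest above its lowest, as a ratio, of the 9 tested members. The control libraries a to d held 14, 16, 10 and 9 reads of it, those of PFBA 50, 20, 26 and 31, and those of PFHxA 6, 9, 4 and 11. In CPM these are 0.653, 0.811, 0.539 and 0.525, then 2.28, 1.08, 1.25 and 1.53, and then 0.328, 0.475, 0.223 and 0.544. All 4 PFBA libraries lay above all 8 others, and PFHxA overlapped control, with PFHxA d above control c and d. MT1F fell by 1.94 on the log2 scale from PFBA to PFHxA (95% interval -2.62 to -1.27, a ratio of 0.260, adjusted p = 0.00278 by edgeR). Against control, PFBA stood 1.27 higher (SE 0.290, 2.41-fold, adjusted p = 0.297) and PFHxA stood at -0.67 (SE 0.355, adjusted p = 0.240), and neither passed. The difference between the acids was called in all 12 fits that left out 1 library, with log2 values from -2.14 to -1.68. DESeq2 gave MT1F no adjusted p.

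The other metallothioneins differed less between groups. MT1X, at chr16:56682424-56684196 on the plus strand, had 8.86, 8.42, 9.81 and 9.69 CPM in control, 8.75, 7.07, 10.02 and 9.86 with PFBA, and 8.19, 7.50, 8.55 and 6.18 with PFHxA. The groups overlapped, although the means ran from 9.20 ± 0.669 in control to 7.61 ± 1.045 with PFHxA (log2 -0.27, SE 0.126, adjusted p = 0.172). MT1E, at chr16:56625475-56627112 on the plus strand, was read by 15 to 34 counts a library and averaged 1.18 ± 0.278 CPM in control, 1.25 ± 0.315 with PFBA and 1.15 ± 0.232 with PFHxA, with its groups overlapping throughout. MT1G, on the minus strand at chr16:56666731-56668065, was 0 in all 12 libraries, where 3 counts, the limit that a count of 0 allows, would be 0.137 to 0.175 CPM. That limit covers counting error only.

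Reads of near-identical copies can be split between rows, so the whole family was also summed. Of 21 listed metallothionein genes and copies, 16 were in the table and 7 of these had no count at all. MT2A had 3533 counts over the 12 libraries, MT1X 2005, MT1E 278 and MT1F 206, and the next, MT3, had 54. The sum was 23.9, 24.0, 25.1 and 22.7 CPM in control libraries a to d, 31.8, 24.1, 29.1 and 32.8 with PFBA, and 27.1, 24.3, 24.4 and 22.1 with PFHxA. PFBA a, c and d exceeded every library of the other groups and PFBA b lay within the control range. MT2A made up 53.2 ± 3.49% of the family's counts in the control libraries, 58.6 ± 2.20% in those of PFBA and 61.6 ± 2.45% in those of PFHxA (SD, n = 4). Without MT2A the sum averaged 11.2 ± 0.786 CPM in control, 12.2 ± 1.66 with PFBA and 9.37 ± 0.817 with PFHxA. As a measure of how far copies could share reads, 50-base windows of the longest transcript occurring in another gene made up 1 of 1524 windows for MT1F and 40 of 854 for MT2A, but 14.7% for MT1X and 10.6% for MT1E. The MT1A row of the table spans MT1F and MT1X on the same strand and MT1G on the opposite one, and held 6 counts in all.

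**Figure D2:**
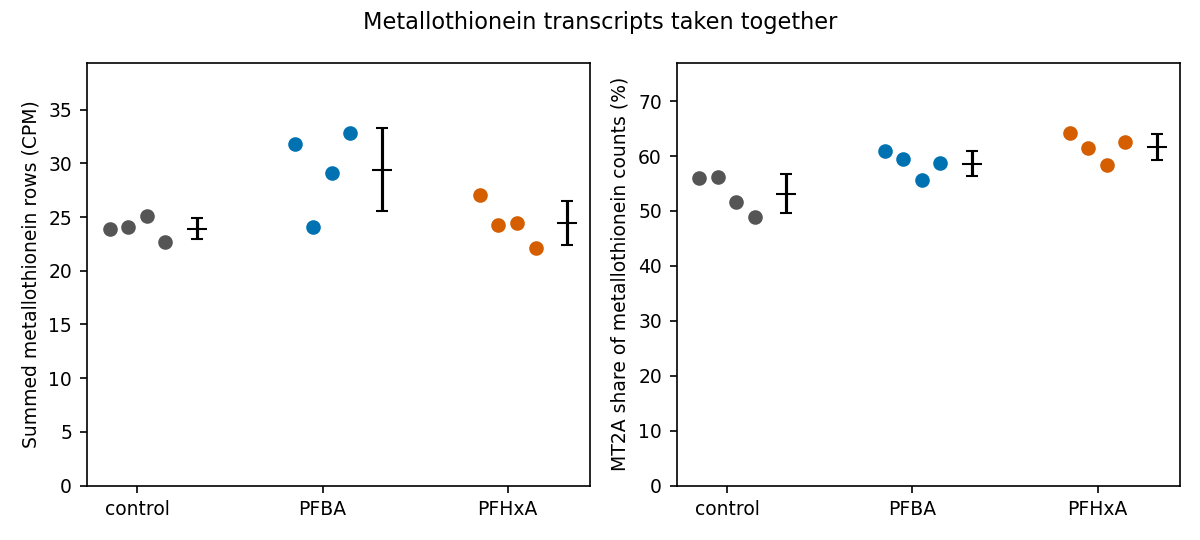
Left, summed CPM of all metallothionein rows in each library; right, MT2A counts as a percent of all metallothionein counts. Each point is 1 library (4 per group) and bars show the mean ± SD; the PFBA sum runs from 24.1 to 32.8 CPM against 22.7 to 25.1 in control, and the MT2A share averages 53.2% in control and 61.6% with PFHxA.

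MTF1, the factor that reads zinc, lies at chr1:37809567-37859620 on the minus strand. It stood at 36.6, 41.1, 38.2 and 37.5 CPM in control, 36.0, 39.9, 43.3 and 40.2 with PFBA, and 42.7, 39.3, 38.3 and 41.3 with PFHxA. All 3 groups overlapped. Its log2 difference from control was 0.05 with PFBA (95% interval -0.08 to 0.19) and 0.07 with PFHxA (-0.06 to 0.21), with adjusted p of 0.817 and 0.491.

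**Figure D3:**
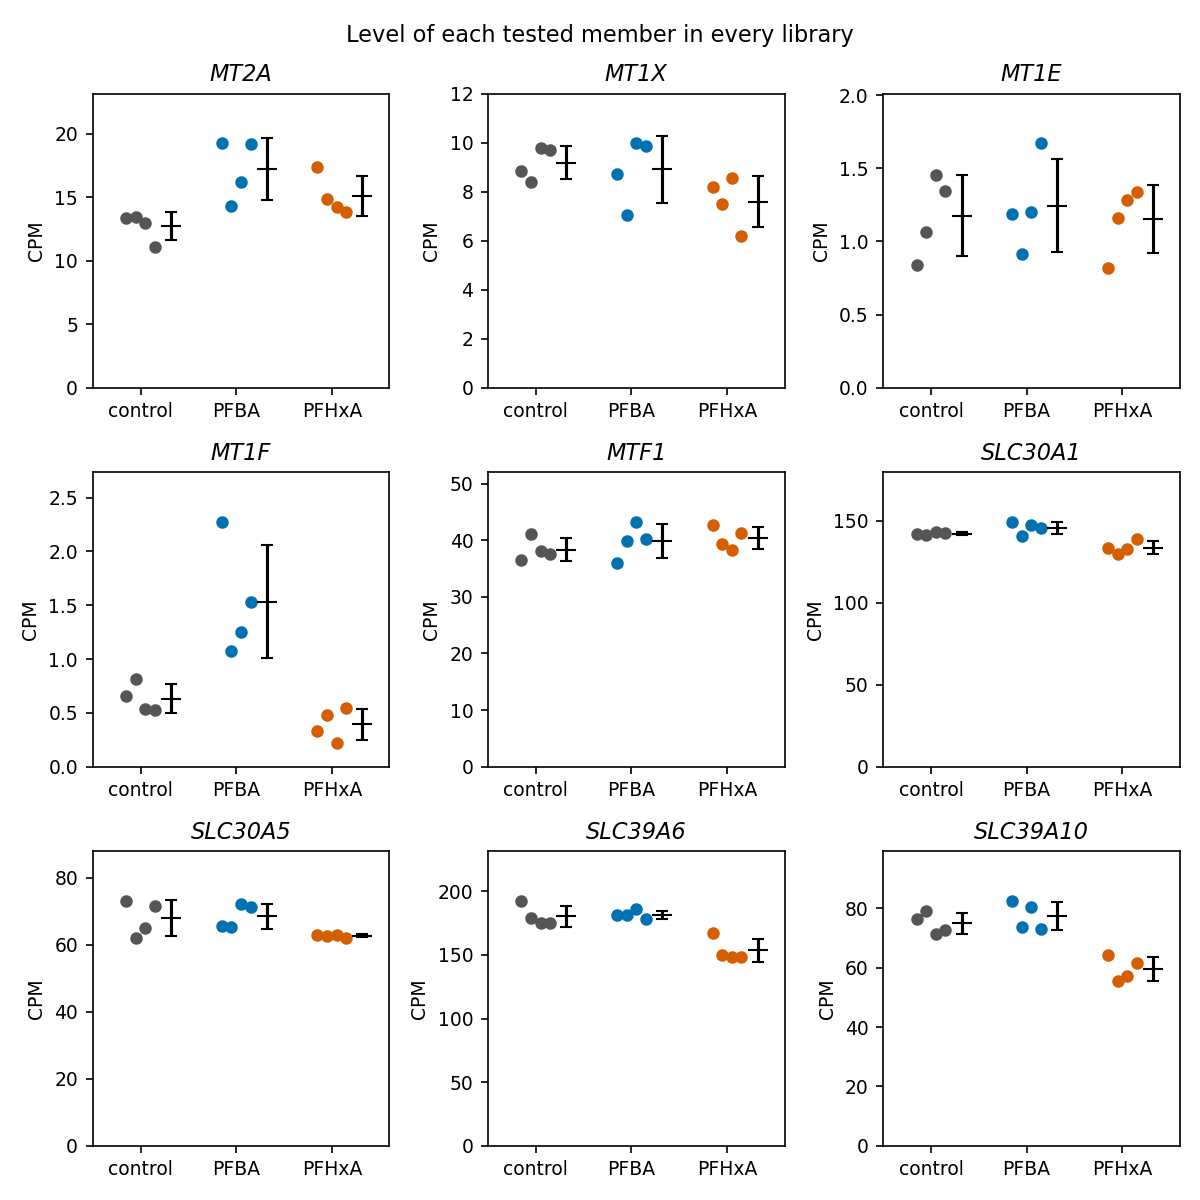
CPM of the 9 tested members in every library, by group, with the mean ± SD (n = 4) beside the points; each vertical axis starts at 0. All PFBA points of MT1F lie above those of the other groups, all PFHxA points of SLC39A10 and SLC39A6 lie below those of the other groups, and all control points of MT2A lie below those of the acids.

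SLC30A1, which exports zinc across the plasma membrane and lies at chr1:211571568-211578742 on the minus strand (ENSG00000170385), was the steadiest member. It had 142, 141, 143 and 142 CPM in control libraries a to d, 149, 141, 147 and 145 with PFBA, and 133, 129.7, 133 and 139 with PFHxA. Its coefficient of variation in control was 0.577%, and every PFHxA library lay below every library of the other groups. SLC30A1 fell by 0.12 on the log2 scale from PFBA to PFHxA (SE 0.0347, a ratio of 0.917, adjusted p = 0.0354 by edgeR). Against control, the PFHxA value of -0.09 (SE 0.0348, adjusted p = 0.110) and the PFBA value of 0.04 (SE 0.0347, adjusted p = 0.769) did not pass. The call between the acids was held in only 5 of 12 fits with 1 library left out. It was lost without PFBA a, c or d, control b, or PFHxA a, b or c, with adjusted p up to 0.122, and also with no low-count filter (0.119). With the GC and length trend of every library removed it turned to 0.065 (adjusted p = 0.409).

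SLC30A5, which loads zinc into the early secretory pathway together with SLC30A6, lies at chr5:69093646-69131069 on the plus strand. It had 73.2, 62.1, 65.0 and 71.7 CPM in control, 65.5, 65.2, 72.2 and 71.3 with PFBA, and 63.0, 62.5, 62.9 and 62.0 with PFHxA. The PFHxA libraries lay within 1 CPM of each other and below all PFBA libraries, but overlapped control at its low end. The differences of PFHxA from control (log2 -0.12, SE 0.0569, adjusted p = 0.190) and from PFBA (log2 -0.13, adjusted p = 0.160) did not pass. Of its 50-base windows, 7.96% also occurred in AC010273.1.

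The zinc importers SLC39A10 and SLC39A6, plasma membrane proteins known to form a heteromer, were lower with PFHxA than in either other group. SLC39A10, at chr2:195575977-195737702 on the plus strand (ENSG00000196950), had 76.3, 79.2, 71.4 and 72.7 CPM in control, 82.6, 73.8, 80.5 and 72.9 with PFBA, and 64.3, 55.5, 57.1 and 61.5 with PFHxA. The highest PFHxA library lay below the lowest of the other 8. SLC39A10 fell by 0.33 on the log2 scale against control (SE 0.0598, a ratio of 0.796, adjusted p = 0.00378) and by 0.38 against PFBA (SE 0.0597, a ratio of 0.770, adjusted p = 0.00252). PFBA stood 0.05 above control (95% interval -0.08 to 0.18, adjusted p = 0.831).

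SLC39A6, at chr18:36108532-36129385 on the minus strand (ENSG00000141424), had 193, 179, 175 and 175 CPM in control, 181, 181, 186 and 178 with PFBA, and 167, 150.3, 148 and 148 with PFHxA. All PFHxA libraries lay below all others, with PFHxA a apart from its group. SLC39A6 fell by 0.23 against control (SE 0.0472, a ratio of 0.851, adjusted p = 0.00633) and by 0.24 against PFBA (SE 0.0472, a ratio of 0.845, adjusted p = 0.00640). PFBA stood 0.01 above control (95% interval -0.09 to 0.11, adjusted p = 0.967). SLC39A10 and SLC39A6 were called lower in all 12 fits that left out 1 library, in both comparisons of PFHxA. With the GC and length trend of every library removed all 4 calls were lost, at -0.16 and -0.18 for SLC39A10 and -0.11 and -0.12 for SLC39A6 against control and PFBA.

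The members called are counted here beside all tested genes. With PFBA against control 0 of 9 tested members were called by edgeR or by limma-voom. DESeq2 called none of the 8 members to which it gave an adjusted p, and MT1F was not among these. In edgeR 2 members (MT1F and MT2A) had an unadjusted p under 0.05, as had 1632 of all 16554 tested genes. After adjustment 0.00604% of all tested genes were called. Of all tested genes limma-voom called 0 and DESeq2 44. In the same comparison those 2 members did not overlap control, and 5.96% of all tested genes did not, 3.17% on the higher side. With PFHxA against control 2 of 9 members were called, both lower, where 14.9% of all tested genes were called and 8.82% were called lower. There 4 members did not overlap control (MT2A higher, SLC30A1, SLC39A6 and SLC39A10 lower), against 20.7% of all tested genes, 9.49% higher and 11.2% lower. Between the acids 4 of 9 members were called, all lower with PFHxA (MT1F, SLC30A1, SLC39A6 and SLC39A10), where 10.9% of all tested genes were called and 7.07% were called lower. There 5 members did not overlap, these 4 and SLC30A5, all lower with PFHxA, against 20.0% of all tested genes, 10.8% in that direction. The median log2 difference of the 9 members was 0.05 with PFBA, -0.12 with PFHxA and -0.19 between the acids, beside medians of -0.003, -0.004 and 0.005 over all tested genes. With so few members, chosen with results known, these shares describe and nothing particular to the members is drawn from them.

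**Figure D4:**
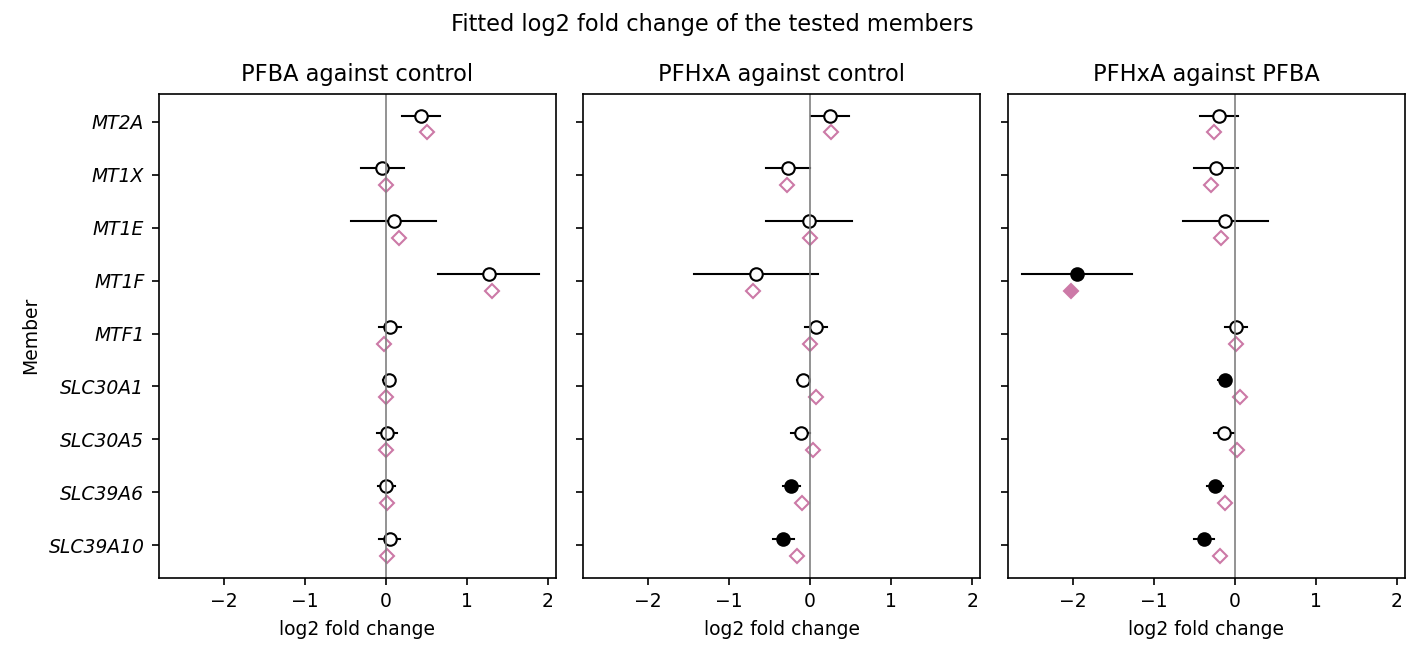
Fitted log2 fold change of the 9 tested members in the 3 comparisons. Circles with bars are the edgeR fit with its 95% interval, diamonds the same fit with the GC and length trend of every library removed, and filled symbols have an adjusted p under 0.05; the filled circles of SLC39A10, SLC39A6 and SLC30A1 have open diamonds, while MT1F between the acids is filled in both.

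The acids were compared at 1 µM and 7 days for the 9 tested members, with p-values adjusted over all genes. The 5 members not called between them had differences of PFHxA from PFBA whose 95% intervals on the log2 scale ran from -0.43 to 0.04 for MT2A, -0.50 to 0.04 for MT1X, -0.64 to 0.41 for MT1E, -0.12 to 0.16 for MTF1 and -0.253 to -0.0080 for SLC30A5, the 1 of the 5 that leaves out 0. The intervals of MT1E, MT1X and MT2A leave room for differences larger than those called in the transporters. That of SLC30A5 reaches beyond the called values of SLC39A6 (-0.243) and SLC30A1 (-0.125). That of MTF1 is narrower, but its upper side still leaves room for a difference larger in size than that of SLC30A1.

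The GC slope of the libraries moved with the same groups as the transporter results, and the members differ in GC content. The longest transcripts of SLC39A10, SLC30A1, SLC30A5 and SLC39A6 have 37.6%, 38.0%, 40.0% and 41.6% GC, MTF1 46.7%, and the metallothioneins 53.5% to 58.2%, beside a median of 48.5% over all tested genes. In PFHxA against control, the 2217 tested genes of 35 to 40% GC had a median log2 difference of -0.19, with the 10th and 90th percentiles at -0.46 and 0.06, and 31.2% of them were called lower. The 3539 genes of 40 to 45% had a median of -0.09 (percentiles -0.36 and 0.15), and 13.5% were called lower. The values of SLC39A10, SLC39A6, SLC30A1 and SLC30A5 lie within those percentiles. MT1F and MT1X lie below the band of genes of like GC content, which includes genes of every expression level.

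In the fit with that trend removed, the adjusted p was 0.110 against control and 0.123 against PFBA for SLC39A10, and 0.215 and 0.230 for SLC39A6, whose directions stayed. SLC30A1 was reversed against control too, at 0.070 (adjusted p = 0.285). MT1F between the acids stood at -2.03 (adjusted p = 0.0139) and was the 1 member called in any comparison of that fit. Of all 16554 tested genes, that fit called 146 between the acids, 433 with PFHxA against control and 1 with PFBA against control. MT2A stood at 0.50 with PFBA (adjusted p = 0.320) and 0.25 with PFHxA (0.256).

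**Figure D5:**
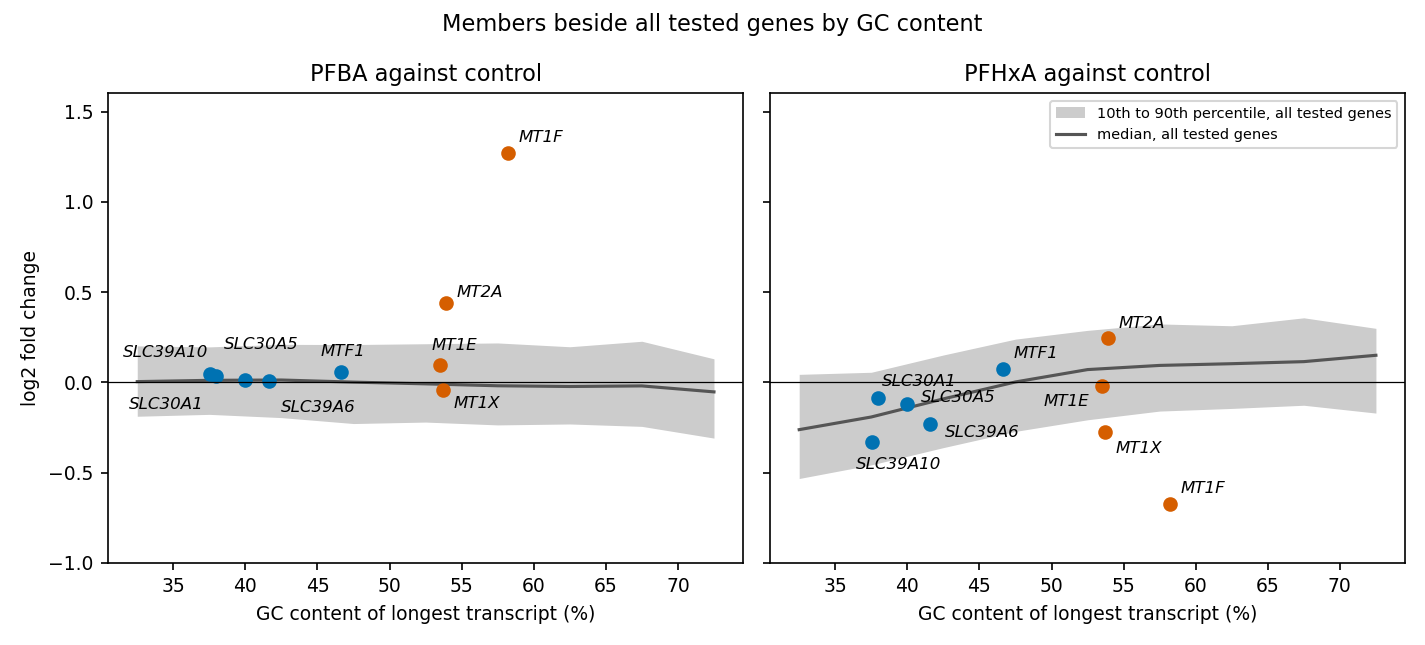
Log2 fold change of the 9 tested members against the GC content of their longest transcript, for each acid against control. The line and band are the median and the 10th to 90th percentiles of all tested genes in bins of 5 percentage points, orange points are metallothioneins and blue points the other members; in PFHxA the median runs from -0.19 at 35 to 40% GC to 0.09 at 55 to 60%, and the transporters lie inside the band.

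Among the zinc transporters, listed by family, the genes called were members and no other was called by edgeR in the fit of all libraries. The members were chosen with results of these libraries known, so nothing is drawn from this. Of the 10 genes of the SLC30 family, listed here as zinc exporters, 9 were tested, and none was called with either acid against control by edgeR. Between the acids SLC30A1 was the 1 called, beside 10.9% of all tested genes. Of the 14 zinc importers of the SLC39 family 11 were tested, none was called with PFBA, and SLC39A6 and SLC39A10 were the 2 called in each comparison of PFHxA, beside 14.9% of all tested genes against control and 10.9% between the acids. SLC39A7, which releases zinc from the endoplasmic reticulum, stood at 152 ± 4.15 CPM with PFHxA and 140.1 ± 10.3 in control (log2 0.11, adjusted p = 0.137), but its locus overlaps RXRB on the opposite strand, and without a stated strand setting reads of the pair cannot be told apart. Its difference from control was called in the fit without control b (adjusted p = 0.0237). Between the acids SLC39A7 was called in 2 of 12 fits that left out 1 library (lowest adjusted p = 0.0458). SLC39A14, a zinc and manganese importer, stood at 295 ± 78.3 CPM with PFHxA, a log2 difference of -0.09 from control (adjusted p = 0.793). The median of the 9 exporters was 0.01 with PFBA and -0.09 with PFHxA, and that of the 11 importers 0.01 and -0.09.

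Other listed genes were copper handling genes, stress genes that metals induce and genes that glucocorticoids induce. Over all tested genes edgeR called 0.00604% with PFBA against control, 14.9% with PFHxA against control and 10.9% between the acids. Of 12 copper handling genes, none was called with PFBA or between the acids, and with PFHxA against control SCO1, a copper chaperone of cytochrome c oxidase, was lower (94.3 ± 3.01 to 85.0 ± 2.11 CPM, log2 -0.15, adjusted p = 0.0392), a call held in 4 of 12 fits that left out 1 library. The copper importer SLC31A1 stood 0.10 above control with PFHxA (adjusted p = 0.147), CCS, which delivers copper to superoxide dismutase, at 0.02 (0.890), and COX17, another chaperone of cytochrome c oxidase, at -0.28 (0.115). COX17 was called lower than control in the fit without control b (adjusted p = 0.0397). The loci of SCO1, SLC31A1, CCS, COX17 and, below, GCLC overlap those of other genes, so their counts are uncertain in the same way as that of SLC39A7. Of 10 stress genes that metals such as cadmium induce, none was called with PFBA. With PFHxA against control HMOX1, the enzyme that breaks down haem, rose from 7.85 ± 0.532 to 9.71 ± 0.608 CPM (log2 0.30, adjusted p = 0.0354), and BAG3, a partner of heat shock proteins, rose from 51.0 ± 3.26 to 59.4 ± 1.95 (log2 0.22, adjusted p = 0.0119). HSPH1, a heat shock chaperone, fell from 285 ± 11.2 to 245 ± 13.4 CPM (log2 -0.21, adjusted p = 0.00634). The chaperone DNAJB1, whose locus overlaps TECR on the opposite strand, stood at -0.10 (adjusted p = 0.576) and GCLC, an enzyme of glutathione synthesis, at -0.13 (0.209). The call of HMOX1 was lost without control b, c or d or PFHxA a or b, and those of HMOX1 and SCO1 were also lost with no low-count filter (adjusted p = 0.0802 and 0.0956). With the GC and length trend removed none of these 4 calls was held, with log2 values of 0.26 for HMOX1 (adjusted p = 0.153), 0.15 for BAG3 (0.124), -0.089 for HSPH1 (0.203) and -0.21 for SCO1 (0.0517). Between the acids BAG3 was higher and HSPH1 lower with PFHxA (adjusted p = 0.0245 and 0.00690). The call of BAG3 was lost without PFBA c, PFBA d or PFHxA b (adjusted p up to 0.0722) and with no filter (0.0557), and both calls were lost with the trend removed (0.359 and 0.433). Glucocorticoids also induce metallothioneins. Of 9 genes that glucocorticoids induce 8 were tested and none was called in any comparison by edgeR in the fit of all libraries, with ERRFI1 at 0.21 with PFBA (adjusted p = 0.418), and TSC22D3 at 0.30 (0.314) and CEBPD at -0.07 (0.688) with PFHxA. TSC22D3 was called against control in the fit of the control and PFHxA libraries alone (log2 0.30, adjusted p = 0.0282) and in that without PFBA d (0.0121).

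Likeness to 2 members was described over log2 CPM of the 12 libraries, among 13061 other tested genes with a mean of at least 1 CPM. Genes with a clone name, small RNAs and pseudogenes had been left out of these. These libraries share groups, and the libraries of PFHxA share a GC slope, so a correlation here is a description. The genes most like MT2A were ZNF808 (Pearson r 0.92, and 0.79 after the group means were subtracted), PIK3CB (0.91 and 0.78), COL7A1 (0.88 and 0.77), USF3 (0.86 and 0.68) and KIF5C (0.85 and 0.63). Those most like SLC30A1 were NUDT21 (0.94 and 0.71), HNRNPA3 (0.94 and 0.76), LIN7C (0.94 and 0.70), MIB1 (0.94 and 0.70) and ETFDH (0.94 and 0.76). Among the members, SLC39A10 and SLC39A6 had r of 0.92, and 0.58 within groups, and SLC30A1 and SLC39A10 had 0.90 and 0.55. MT2A was less like its neighbours in the cluster, at 0.53 and 0.45 with MT1F, 0.08 and 0.39 with MT1X, and 0.03 and -0.08 with MT1E.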

How the data were processed

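Total RNA libraries (VAHTS kit, Illumina NovaSeq, per the labels) were aligned by the authors with HISAT2 2.0.4 to GRCh38, per the submitters' processing notes. The deposited table holds raw counts per Ensembl gene as made by the authors. Which program counted reads, with which annotation and strand setting, is not given in the sources used here. A further 12 columns with values per library were not used, so levels between genes rest on CPM per kilobase of the longest transcript in place of the FPKM first planned. Columns were assigned to groups by prefix, and their letters a to d are not tied to the replicate numbers in the labels.

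Counts were tested with edgeR 4.0.16 (R 4.3.3) in 1 quasi-likelihood fit of all 12 libraries, with filterByExpr (minimum count 10, total 15), TMM scaling, group as the only term, two-sided tests and Benjamini-Hochberg adjustment over 16554 genes. A gene was called at an adjusted p under 0.05. The procedure was tested on simulated data. CPM uses TMM-scaled totals, log2 CPM adds a prior count of 2, and CPM per kilobase was used only to compare genes. GC content and length came from the longest GENCODE transcript, for 16452 tested genes. Alternatives were RLE scaling, no filter, a stricter one (1 CPM or more in 4 libraries, mean count of 50), the 8 libraries compared, DESeq2 1.42.0, limma-voom (limma 3.58.1), leaving out each library, and offsets that take out GC and length trends per library (splines with 5 degrees of freedom). Figures were drawn with matplotlib 3.10.9 in Python 3.11.15 (pandas 2.3.3, numpy 2.4.6).

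The members and the gene lists (metallothioneins, SLC30 and SLC39 families, copper handling, metal-induced stress and glucocorticoid-induced genes, cell type markers) were chosen with earlier results of these data known. All members were named, with each other listed gene called in at least 1 comparison, the 3 of each list with the highest mean level per kilobase, and the 5 genes most correlated with MT2A and with SLC30A1. No pair of libraries of a group differed by counting noise alone, as 1 library sequenced again would. The chi-square of their counts over genes ran from 10.1 to 22.0 per degree of freedom. It cannot show whether the libraries came from separate cultures.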

Additional observations from a re-analysis of the deposited data

Results flagged for a closer look

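SLC39A6 in PFHxA library a stood at 167.3 CPM, while the other 3 PFHxA libraries ran from 148.2 to 150.3, a gap wide for a group of 4 by Dixon's test at the 95% level. Of 27 groups of members checked, 1 was so marked, and chance marks about 1 in 20. Without that library SLC39A6 stood at -0.28 against control, beside -0.23 with it.

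For 4 members the effect of PFHxA differed from that of PFBA. The control cancels in this difference, so it is the edgeR comparison between the acids given above and no further test. On the log2 scale the effect of PFHxA minus that of PFBA was -1.94 for MT1F, -0.38 for SLC39A10, -0.24 for SLC39A6 and -0.12 for SLC30A1. The GC slope of the PFHxA libraries differs from that of the others in the same comparison. With the trend removed, the value of MT1F was -2.03, that of SLC39A10 -0.18, that of SLC39A6 -0.12 and that of SLC30A1 0.07. Of these, MT1F alone was still called, in a fit that called 146 of all tested genes between the acids. Without trend removal, the call of SLC30A1 was held in 5 of 12 fits that left out 1 library.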

How the results depend on the processing

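No paired analysis was possible because the table's columns carry letters and no replicate numbers of the labels. Counts of genes called moved as follows, and the cause was not tested. For PFBA against control, with 1 gene called, there were 2 with no filter, 2 with the 8 libraries compared, 44 with DESeq2 (23 higher, 21 lower) and 0 with limma-voom, and 0 to 4 when 1 library was left out. For PFHxA against control, 2466 became 433 with the GC and length trend removed (378 of them shared) and 1523 to 2396 when 1 library was left out, the lowest without PFHxA b. Between the acids 1806 became 146 with that trend removed (125 shared), and 1035 to 2187 when 1 library was left out, the lowest without PFHxA b.

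Values of members crossed 0 in some fits. With the GC and length trend removed, PFBA against control gave 0.0022 for MT1X and -0.018 for MTF1. PFHxA against control gave 0.0032 for MT1E (2.9e-05 by limma-voom), -0.0070 for MTF1, 0.070 for SLC30A1 and 0.029 for SLC30A5, and PFHxA against PFBA gave 0.065 for SLC30A1 and 0.027 for SLC30A5. Leaving out 1 library gave -0.10 to 0.054 for MT1X, -0.077 to 0.22 for MT1E, -0.0051 to 0.043 for SLC39A6 and -0.030 to 0.048 for SLC30A5 in PFBA against control, -0.16 to 0.11 for MT1E in PFHxA against control, and -0.23 to 0.059 for MT1E and -0.026 to 0.063 for MTF1 between the acids. Of these, SLC30A1 between the acids was the 1 called.

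Of the other genes named, that trend removal gave -0.021 for HSPH1, 0.0055 for SLC39A7 and 0.0053 for DNAJB1 with PFBA, -0.039 for CCS with PFHxA, and 0.018 for SLC30A8, -0.011 for CCS, 0.093 for COX17 and 0.022 for ERRFI1 between the acids, and limma-voom gave -0.036 for TSC22D3 with PFBA. Leaving out 1 library gave -0.017 to 0.024 for HSPH1, -0.013 to 0.059 for BAG3, -0.056 to 0.029 for SLC39A7, -0.097 to 0.054 for DNAJB1, -0.075 to 0.024 for GCLC, -0.096 to 0.025 for CEBPD and -0.063 to 0.20 for TSC22D3 with PFBA. With PFHxA it gave -0.16 to 0.090 for SLC39A14, -0.013 to 0.048 for CCS and -0.13 to 0.0082 for CEBPD. Between the acids it gave -0.48 to 0.32 for SLC30A8, -0.22 to 0.034 for SLC39A14, -0.0040 to 0.056 for SLC31A1, -0.085 to 0.0099 for COX17 and -0.087 to 0.052 for CEBPD.

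MT1F and MT1E did not pass the stricter filter, and DESeq2 gave no adjusted p for MT1F in any comparison or for MT1E in those of PFHxA. With 4 to 50 counts of MT1F a library, its level is the least precise of the tested members.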

Other observations

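The zinc exporter with the highest level in these cells was SLC30A8, known for loading zinc into the insulin granules of pancreatic beta cells, and it was also the zinc transporter with the widest spread within groups. It stood at 362, 1096, 1056 and 1022 CPM in control libraries a to d, 397, 389, 567 and 1095 with PFBA, and 594, 943, 350.5 and 368 with PFHxA. High and low libraries occurred in every group, and the mean within-group coefficient of variation was 47.6%, against 1.97% for SLC30A1, the lowest of the 20 tested zinc transporters. Its differences did not pass (log2 -0.53 with PFBA, adjusted p = 0.767, and -0.65 with PFHxA, 0.442). SLC30A9, another abundant gene of the SLC30 family, stood at 171 ± 41.1 CPM in control and 137 ± 5.23 with PFHxA (SD, n = 4, adjusted p = 0.174 by edgeR, and 0.0243 without control c).

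SLC39A1, a plasma membrane zinc importer, was picked after its values were seen. It had 103, 112, 106 and 120.0 CPM in control, 28.2, 85.1, 112 and 64.0 with PFBA, and 109.9, 120.4, 113 and 60.0 with PFHxA. PFBA a, b and d and PFHxA d lay below every control library, and the groups overlapped (log2 -0.61 with PFBA, SE 0.363, adjusted p = 0.622).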
